A study of Mus musculus with 18 samples.

Results

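The mitochondrial protein import machinery was followed here as 38 genes of 27830 listed across the deposited tables of mouse CD8+ T cells. Members were taken by name: protein-coding genes whose symbol starts with Tomm or Timm, plus Pam16, Samm50, Mtx1, Mtx2, Mtx3, Pmpca, Pmpcb, Immp1l, Immp2l, Chchd4, Gfer and Romo1. The naive and effector tables list all 38, and the memory table lists 37, without Tomm20l. The study sequenced poly-A RNA from naive CD8+ T cells of lymph nodes and spleen from mice 8 weeks old, and from effector and memory cells that had been differentiated from naive cells in culture. The mice were wild type (WT) or carried a conditional knockout (cKO) of Hspa9, the gene of the mitochondrial chaperone GRP75, and all were labelled as not treated. There were 3 libraries of each genotype in each of 3 subsets, 18 in all. The Cre driver, the deleted exons and the strain are not given in the sources used here, nor is it stated that the replicates were separate mice, so every p-value below measures the spread between these libraries, which may be technical.

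Nearly all mitochondrial proteins are made in the cytosol and imported. The TOM complex is the entry gate of the outer membrane: Tomm20, Tomm22 and Tomm70a (Tomm70) are receptors, Tomm40 forms the channel, and Tomm5, Tomm6 and Tomm7 are small subunits that help assemble and stabilise it. From there proteins are sorted to the SAM complex (Samm50 and the metaxins) for outer membrane barrels, to the TIM23 channel for precursors with a presequence, to the small TIM chaperones and the TIM22 channel for carriers, or to the disulfide relay of Chchd4 and Gfer in the intermembrane space. GRP75 is the ATP-driven part of the import motor that pulls precursors through TIM23 into the matrix, where the peptidase of Pmpca and Pmpcb removes the presequence. The question put to these genes was therefore how the transcripts of the gates behave where the gene of the motor chaperone is targeted.

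These promoters are printed because they belong to the members that the comparisons below turn on: Tomm22 and Tomm34 had the lowest adjusted p in naive cells labelled cKO, and Mtx3 and Timm9 had the largest falls from WT naive to WT effector cells. Each is the 250 bases before the RefSeq transcription start, read 5′ to 3′ on the gene's strand in build GRCm38.p6, with capitals marking matches to CCGGAAG (an ETS-type motif) or CACGTG (an E-box) on either strand. The regions are chr15:79670618-79670867 (plus strand) for Tomm22, chr2:164071170-164071419 (minus) for Tomm34, chr13:92844518-92844767 (plus) for Mtx3 and chr12:71136676-71136925 (minus) for Timm9. RefSeq gives Tomm34 a further start, whose window (chr2:164071103-164071352) holds 2 ETS-type matches and is not printed because it runs past the start used here.
Tomm22: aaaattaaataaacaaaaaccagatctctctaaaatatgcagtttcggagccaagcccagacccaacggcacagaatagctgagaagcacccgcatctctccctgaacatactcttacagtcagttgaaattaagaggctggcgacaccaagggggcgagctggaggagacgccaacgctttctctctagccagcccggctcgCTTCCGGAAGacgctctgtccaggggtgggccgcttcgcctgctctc
Tomm34: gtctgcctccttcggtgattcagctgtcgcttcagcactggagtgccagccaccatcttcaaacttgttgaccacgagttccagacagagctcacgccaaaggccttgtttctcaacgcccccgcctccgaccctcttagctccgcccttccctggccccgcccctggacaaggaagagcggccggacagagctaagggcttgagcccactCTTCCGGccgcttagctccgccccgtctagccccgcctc
Mtx3: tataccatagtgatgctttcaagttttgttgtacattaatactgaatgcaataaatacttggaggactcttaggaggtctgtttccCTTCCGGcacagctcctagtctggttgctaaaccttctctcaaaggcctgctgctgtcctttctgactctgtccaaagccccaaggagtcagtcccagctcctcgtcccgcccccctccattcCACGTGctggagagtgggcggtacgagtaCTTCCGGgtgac
Timm9: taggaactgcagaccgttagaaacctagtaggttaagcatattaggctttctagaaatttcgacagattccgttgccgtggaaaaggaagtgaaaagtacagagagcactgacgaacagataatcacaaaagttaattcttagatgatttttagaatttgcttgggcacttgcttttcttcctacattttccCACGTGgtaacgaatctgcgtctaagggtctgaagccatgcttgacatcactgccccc
In Tomm22 a match on each strand overlaps the other, so that its capitals form 1 block. RefSeq promoters were found for 35 of the 38 members, and Timm21, Tomm40l and Tomm7 had no entry in the table used here. The ETS-type motif was in 15 of these 35 (42.9%), against 7.83% of 27025 genes with a promoter and 17.2% of 8794 protein-coding genes that were expressed enough to be tested. Its 15 members were Mtx1, Mtx2, Mtx3, Pmpca, Pmpcb, Romo1, Timm10, Timm23, Timm29, Timm8a2, Timm8b, Timmdc1, Tomm22, Tomm34 and Tomm70a. The E-box was in Mtx3, Timm8a1, Timm9, Tomm20 and Tomm20l (14.3%, against 6.86% of all genes and 10.1% of tested protein-coding genes). An NRF1-type string, GCATGCGC, was in Timm13 alone (2.86%, against 2.56% and 5.50%), and the amino-acid response string TGATGCAA was in no member (0.918% of all genes and 0.648% of tested genes held it). Motifs were searched on both strands, and a match describes letters in a window, not a bound site.

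Library depth, rebuilt from the deposited values, ranged from 14771251 to 18049774 reads. The first check of the labels was Hspa9 itself. In naive cells it had 4095, 3789 and 4093 normalised reads in WT and 6448, 6718 and 6149 in the libraries labelled cKO, a log2 difference of +0.69 (SE 0.062, limma adjusted p = 1.3e-05). In effector cells the values were 2001, 2138 and 2140.0 against 2168, 2450.1 and 2402 (+0.16, limma adjusted p = 0.033), and in memory cells 3916, 4154 and 4053 against 5778, 5669 and 5463 (+0.48, limma adjusted p = 0.00034). The whole-gene count of Hspa9 was thus higher, not lower, in the libraries labelled cKO of every subset. Reads outside a deleted part are counted too, so this value goes against the label without showing which exons were transcribed. Genotype differences below are therefore those between libraries labelled cKO and libraries labelled WT. The CD8 T cell markers (9 of 9, Cd3d and Cd8a among them) had reads in every library. They summed to 6707 to 6927 reads per 1000000 (CPM) in naive WT and 5893 to 6134 in naive cKO libraries (0 higher, 7 lower). Effector WT and cKO libraries had 7542 to 7647 and 6773 to 7040 CPM (1 higher, 2 lower). Memory WT and cKO libraries had 5980 to 6479 and 5032 to 5761 CPM (0 higher, 3 lower). The genotype effect was more positive in effector than in naive cells for 5 of the 9. Their part in the results below was not tested.

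Other marker lists moved with the genotype labels. The 4 Y-chromosome genes (Ddx3y, Eif2s3y, Kdm5d and Uty) summed to 0 CPM in all 3 naive WT libraries and to 380.3 to 428.1 CPM in the naive cKO libraries, so sex and genotype cannot be told apart in naive cells. Those 4 genes are not listed in the effector and memory tables. The 10 cycling-cell genes summed to 46.2 to 53.8 CPM in naive WT and 279 to 304 in naive cKO, to 3191 to 3313 and 2293 to 2379 in effector cells, and to 333 to 343 and 432 to 486 in memory cells. The 5 gamma-delta T cell genes went from 9.36 to 10.9 CPM in naive WT to 50.5 to 59.2 in naive cKO, from 8.50 to 9.60 to 61.7 to 64.6 in effector cells, and from 15.9 to 16.5 to 117 to 153 in memory cells. Markers of other blood cells moved in the cultured subsets. The 5 neutrophil genes summed to 12.5 to 13.6 CPM in effector WT and 39.2 to 41.6 in effector cKO, and to 8.26 to 12.5 and 143 to 215 in memory cells, with 5 of 5 higher in each. The 7 myeloid genes summed to 159 to 170 CPM in effector WT and 200 to 208 in cKO (5 higher, 1 lower), and to 58.6 to 72.8 and 323 to 421 in memory cells (7 higher). The 5 erythroid genes listed in every table went from 11.3 to 13.4 CPM to 85.4 to 90.9 in effector cells (5 higher), and from 17.8 to 27.1 to 46.3 to 63.4 in memory cells (3 higher). The 7 B cell genes went from 40.7 to 41.1 CPM to 50.1 to 54.5 in effector cells (2 higher) and from 112 to 123 to 209 to 231 in memory cells (5 higher). The 4 CD4 T cell genes went from 4.52 to 5.88 CPM in naive WT to 14.1 to 17.2 in naive cKO (3 higher), stood at 63.3 to 64.8 and 62.9 to 65.8 in effector cells, and went from 15.2 to 18.3 to 32.8 to 35.6 in memory cells (2 higher). The 4 NK cell genes lay at 34.5 to 41.2 and 34.4 to 36.4 CPM in naive, 114 to 131 and 101 to 115 in effector (2 higher, 2 lower) and 117 to 136 and 139 to 157 in memory cells (3 higher). The naive cells had almost no neutrophil signal (0.377 to 1.07 CPM in WT, 0.388 to 0.942 in cKO), and their B cell (22.1 to 23.1 and 18.2 to 20.4, 3 genes higher and 1 lower) and myeloid sums (35.4 to 40.9 and 35.5 to 39.5) were low in both genotypes. The part of these differences in the results below was not tested.

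In naive cells, 7 of the 35 members that could be tested were lower in the libraries labelled cKO and 0 were higher. They were Tomm22, Tomm7 and Tomm5 of the outer gate, Timm13 and Romo1 of the inner membrane routes, the peptidase subunit Pmpca, and Tomm34. Tomm34 is a cytosolic protein that was grouped with the TOM genes by its name. The falls of these 7 lay between 0.23 and 0.54 on the log2 scale. A member counted as changed where the Benjamini-Hochberg adjusted p of limma, over all genes of the table, was under 0.05, on log2(normalised reads + 1). Genes had to reach 10 normalised reads in 3 or more libraries to be tested. Tomm6, Timm8a2 and Tomm20l were under that minimum in every subset. Over all 13885 genes tested, 24.9% passed in either direction (12.9% higher, 11.9% lower), against 7 of 35 members, all of them lower. The median log2 difference was -0.06 over the members and -0.01 over all genes.

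Of the 8 genes tested in the TOM group, which takes in Tomm34, 4 fell. Tomm22, the central receptor that joins receptors and channel (chromosome 15, 79555062 to 79557601 in GRCm39, plus strand), had 1230.4, 1086 and 1176 normalised reads in naive WT and 937, 886 and 823 in naive cKO libraries. Every cKO library lay under every WT library, and the log2 difference was -0.40 (SE 0.079, limma adjusted p = 0.0035), or 1.32-fold lower by the group means. Tomm34, a cytosolic co-chaperone that binds Hsp70 and Hsp90 (chromosome 2, 163895460 to 163913089, minus strand), had 1784, 2155 and 1828 in WT and 1415, 1498 and 1515 in cKO. These groups did not overlap either, with a log2 difference of -0.38 (SE 0.080, limma adjusted p = 0.0056). Tomm34 shares 848 bases with Stk4 on the other strand, which had 10060 reads on average in naive libraries, and without a stated strand setting reads from that stretch cannot be told apart. Tomm7, a small subunit also known for stabilising PINK1 at the outer membrane, had 704, 495 and 667 in WT and 476, 459 and 348 in cKO. Its lowest WT library, replicate 2, lay just above the highest cKO library, and the log2 difference was -0.54 (SE 0.15, limma adjusted p = 0.022). Tomm5 went from 515, 476 and 494 to 423, 424 and 354, again without overlap (-0.31, SE 0.097, limma adjusted p = 0.039).

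The other TOM genes did not pass. Tomm20 had a log2 difference of -0.03 and the channel gene Tomm40 of -0.06. Tomm70a, the receptor for carriers, stood at +0.14 and was the only TOM member tested with a positive value, while Tomm40l, a paralog of Tomm40, stood at -0.27 (limma adjusted p = 0.17) with no overlap between its groups. Tomm6 had 5.27, 2.02 and 4.36 normalised reads in WT and 6.02, 8.75 and 5.02 in cKO, too few for a test.

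**Figure D1:**
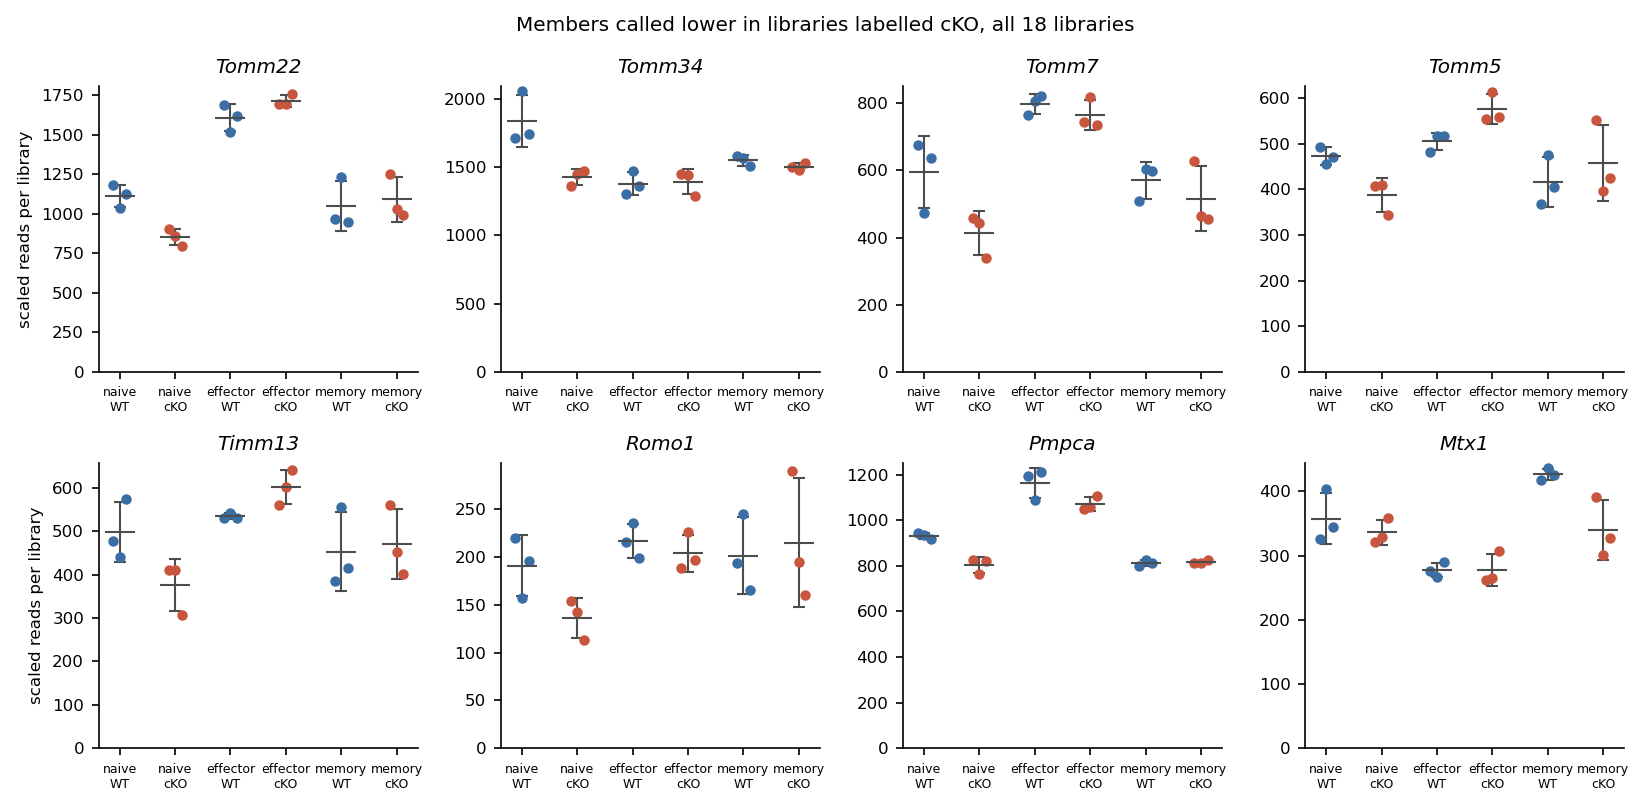
TMM-scaled reads (vertical axis, linear, starting at 0) of 8 members in all 18 libraries, by subset and genotype; points are libraries and bars the mean ± SD of 3. Tomm22 and Tomm34 of the naive libraries labelled cKO lie under all naive WT points. Genotypes overlap for Tomm34 in effector and memory cells and for Tomm22 in memory cells, and the effector cKO points of Tomm22 lie above its WT points on this scale.

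Inside the mitochondrion the naive falls were single members of their groups. Timm13, which works with Timm8 proteins as a small TIM chaperone of the intermembrane space, had 497, 462 and 602 normalised reads in WT and 426, 424 and 316 in cKO (log2 difference -0.42, SE 0.13, limma adjusted p = 0.040), and it was the only one of 8 tested genes of the carrier route to pass. Romo1, a small inner membrane protein of the TIM23 channel, had 229, 165 and 205 in WT and 159, 147 and 116 in cKO (-0.50, SE 0.16, limma adjusted p = 0.045), the only one of 6 TIM23 genes. Romo1 shares 148 bases with Nfs1 on the other strand (499 reads on average in naive libraries, against 170.0 for Romo1), whose reads there cannot be told apart. Pmpca, the alpha subunit of the matrix peptidase, had 985, 977 and 960.4 in WT and 856, 790.3 and 845 in cKO (-0.23, SE 0.070, limma adjusted p = 0.033), the only one of 4 peptidase genes. It shares 874 bases with Inpp5e on the other strand (646 reads, against 905.5 for Pmpca), with the same limit. In all 3 genes each cKO library was under each WT library. Pmpcb, the catalytic partner of Pmpca, stood at +0.01, with 787, 668 and 750.0 against 799, 725 and 689.5 reads, so its groups overlapped. The 4 SAM genes, the motor genes Timm44 (-0.04) and Pam16 (-0.03), the relay genes Chchd4 (-0.30, limma adjusted p = 0.11) and Gfer (+0.04), and Timmdc1 (-0.04), a complex I assembly factor with a TIM-like name, did not pass. The X-linked members Timm8a1 (+0.02) and Timm17b (-0.15) did not pass either. In all, 12 members had all 3 cKO libraries under all 3 WT libraries and 0 had them above, where 39.8% of all tested genes had separate groups in either direction. The further 5 were Timm10, Timm29, Tomm40l, Chchd4 and Immp1l. In bulk RNA, fewer cells that express a gene and less RNA per cell cannot be told apart.

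How many members fell in naive cells depended on the libraries and the scaling. Tomm22 and Tomm34 passed under each of the 15 alternatives run. Leaving out WT replicate 1 or WT replicate 3 left only those 2, leaving out cKO replicate 2 left 3 (with Tomm7), and leaving out cKO replicate 3 left 3 (with Pmpca) and added Mtx3 as higher. Scaling by library totals, an alternative chosen after seeing the data, gave 3 higher (Mtx3, Timm9, Tomm70a) and 2 lower (Tomm22, Tomm34), with the median of all genes moving from -0.01 to +0.11. In the authors' deposited table, 4 of the members tested had an adjusted p under 0.05 in naive cells, and all 35 had the same sign as here.

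**Figure D2:**
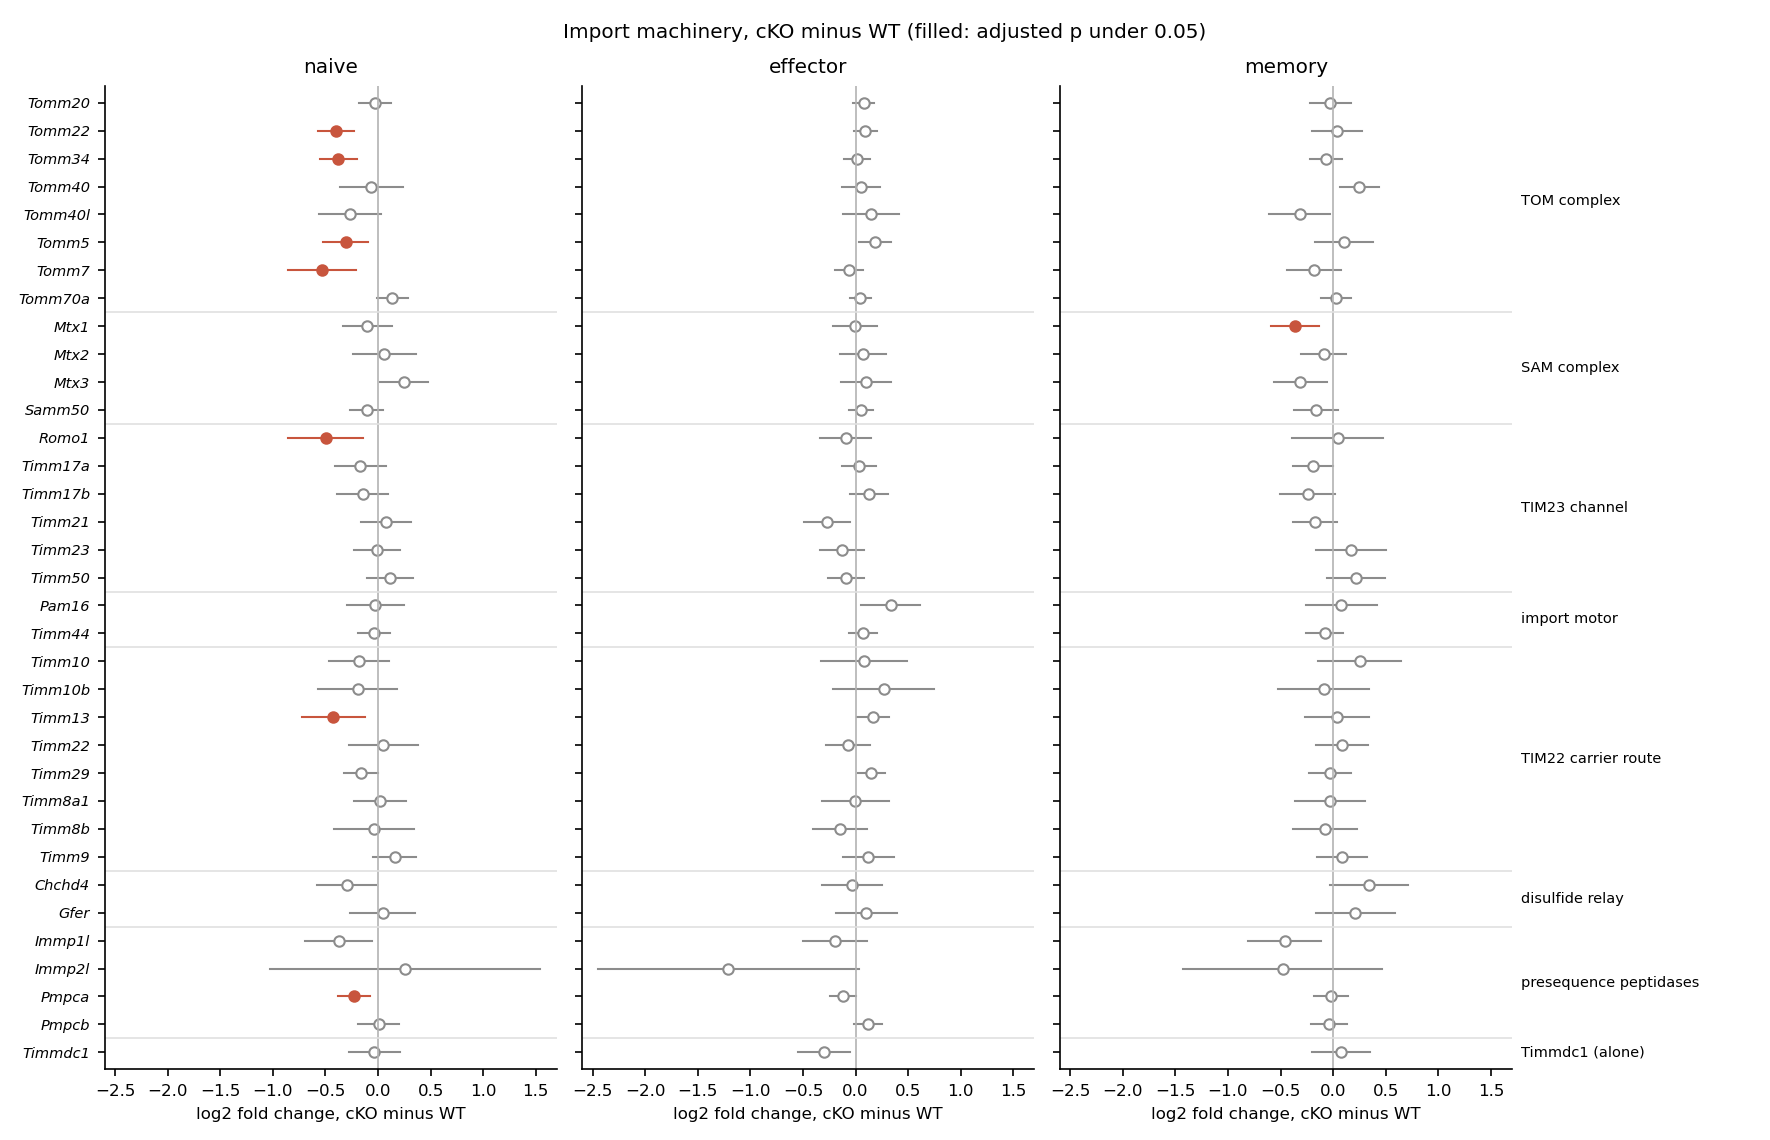
Log2 difference, cKO minus WT, of the 35 tested members in naive, effector and memory cells (horizontal axis), ordered by role, with 95% confidence intervals from limma; filled points passed at an adjusted p under 0.05. The 7 filled naive points all lie left of 0, no effector point is filled, and Mtx1 is the filled memory point.

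Transcript length moved with the naive differences. Over all tested protein-coding genes, the median naive log2 difference was -0.22 for 221 genes under 1000 bases, -0.13 for 1106 genes of 1000 to under 2000, -0.06 for 3333 genes of 2000 to under 4000 and +0.03 for 6306 genes of 4000 and over. In effector cells the same medians lay between -0.03 and 0.00, and in memory cells between -0.01 and +0.03. Other comparisons below had a length trend too. The medians ran from +0.36 under 1000 bases to -0.02 at 4000 and over from WT naive to WT effector cells. From WT effector to WT memory cells they ran from -0.20 to +0.01. For the genotype effect they ran from +0.19 to -0.03 (effector minus naive) and from +0.20 to -0.07 (memory minus naive). Of the members that fell in naive cells, 5 are short by the deposited gene lengths: Romo1 (747 bases), Tomm5 (868), Tomm7 (1125), Timm13 (1371) and Tomm22 (1651). Tomm34 (3040) and Pmpca (4282) are longer. Other short members did not pass: Timm8b (518 bases) stood at -0.04, Timm10 (815) at -0.18 and Immp1l (955) at -0.37. After the length trend was removed across all genes, an alternative chosen after seeing the data, 4 of the 7 still passed: Tomm22, Tomm34, Tomm7 and Pmpca. Within the naive groups, genes under 1000 bases were low in WT replicate 2 (a median deviation of -0.11 from the group) and in cKO replicate 3 (-0.12), the same libraries in which Tomm7 was lowest in its group. The part of length in the naive falls was otherwise not tested.

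**Figure D3:**
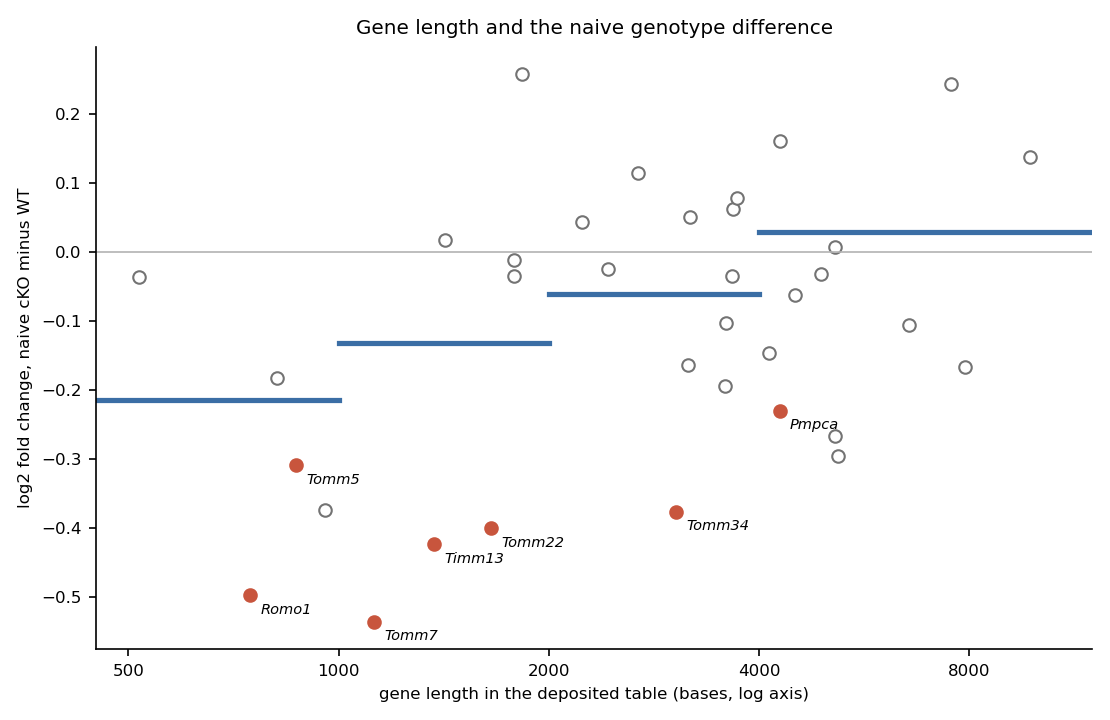
Deposited gene length in bases (horizontal axis, log scale) against the naive log2 difference, cKO minus WT, for the tested members; blue bars are medians of all tested protein-coding genes in 4 length classes, from -0.22 under 1000 bases to +0.03 at 4000 and over. Tomm22 and Tomm34 lie below the bars of their classes.

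In effector cells no member passed: 0 of 35 were higher and 0 lower, where 20.1% of 13815 genes passed (10.7% higher, 9.37% lower). edgeR and DESeq2 on the recovered reads also gave 0, and 6 members had an unadjusted p under 0.05 in limma. Tomm22 and Tomm34, which fell in naive cells, did not fall here. Tomm22 had 1585, 1424 and 1522 normalised reads in WT and 1584, 1588 and 1653 in cKO effector libraries (log2 difference +0.09, limma adjusted p = 0.23), and Tomm34 had 1224, 1379 and 1281 against 1358, 1347 and 1211 (+0.01). The groups of Tomm34 overlapped, and those of Tomm22 only narrowly: with TMM scaling its cKO libraries (1693, 1699 and 1762 reads) all lay above its WT libraries (1689, 1520.0 and 1619). The 6 members with an unadjusted p under 0.05 were Pam16, Timm21, Timmdc1, Tomm5, Timm29 and Timm13. Pam16, the J-like partner that restrains the motor's co-chaperone, had 162, 124 and 173 in WT and 193, 193 and 189 in cKO (+0.34, limma adjusted p = 0.086). Timm21, which links the TOM and TIM23 complexes, had 234, 220.1 and 236 against 185, 201 and 185 (-0.27, limma adjusted p = 0.077). Pam16 was higher and Timm21 lower in every cKO library, yet neither passed the adjustment. Timmdc1 stood at -0.30, Tomm5 at +0.18, Timm29 at +0.15 and Timm13 at +0.16, with limma adjusted p from 0.082 to 0.12. The groups of 6 members were separate upward (Timm13, Timm29, Tomm20, Tomm5, Pam16, Pmpcb) and those of Timm21 downward, where 35.4% of all tested genes had separate groups in either direction. Immp2l (10.4, 12.5 and 12.6 reads in WT, 9.13, 7.27 and 1.01 in cKO) reached the minimum for testing through its WT libraries alone, so its separation is not read as a difference. Without cKO replicate 1 Timmdc1 passed as lower. Without cKO replicate 2, whose Timm23 value of 880.3 stood above 625 and 659 in the other cKO libraries, Timm23, the channel gene, passed as lower.

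In memory cells 1 member passed, Mtx1, a metaxin of the SAM complex (chromosome 3, 89116388 to 89134395, minus strand). It had 426, 434 and 433 normalised reads in WT and 378, 303 and 330 in cKO memory libraries. The WT libraries lay close together and above every cKO library, with a log2 difference of -0.36 (SE 0.10, limma adjusted p = 0.030). Over all genes 19.1% passed (12.1% higher, 7.00% lower), against 1 of 35 members. Mtx1 overlaps the opposite-strand gene Thbs3 over 11658 bases, which had 29.7 reads on average in memory libraries, and Gm43737, which had 255. The other metaxin genes were Mtx3, with 517, 459.7 and 576 in WT and 367, 455 and 428 in cKO (-0.31, limma adjusted p = 0.080), and Mtx2 at -0.09. Samm50, the barrel channel itself, stood at -0.17. All 4 SAM genes thus had a value below 0 and 1 passed, where 47.2% of all tested genes had a value above 0. Signs of so few genes are not read as a result about the SAM group.

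Tomm40 was the member whose memory libraries separated upward, at 483, 506 and 487 in WT and 551, 599 and 606 in cKO (log2 difference +0.25, limma adjusted p = 0.061). Its naive groups overlapped, at 572, 771 and 555 against 571, 536 and 703. Immp1l, a subunit of the inner membrane peptidase, had 288, 344 and 220.2 in memory WT and 224, 193 and 192 in cKO (-0.46, limma adjusted p = 0.061), with WT replicate 3 inside the cKO range. Tomm22 (+0.04) and Tomm34 (-0.07) had overlapping memory groups. In all, 6 members had separate groups, Tomm40 above and Mtx1, Mtx3, Timm17a, Timm21 and Tomm40l below, where 36.2% of all tested genes did. The call of Mtx1 rested on single libraries: it was lost when WT replicate 1, 2 or 3, or cKO replicate 2 or 3, was left out. Without cKO replicate 1, 4 members were lower (Mtx1, Immp1l, Samm50, Tomm7) and Tomm40 higher. Without WT replicate 2 Chchd4 was called higher, and without WT replicate 3 Immp1l lower. Scaling by library totals gave 1 higher (Tomm40) and 0 lower. edgeR and DESeq2 each called 2 lower, Mtx1 and Immp1l. With the length trend removed Mtx1 and Mtx3 were lower and Tomm40 higher. Genes under 1000 bases were high in WT replicate 2 (+0.16) and cKO replicate 1 (+0.20) and low in cKO replicate 3 (-0.14) of the memory set.

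The difference of the genotype effect between subsets was tested directly as an interaction in 1 limma model of all 6 groups. Between effector and naive cells it was positive for 5 of 35 members and negative for 0, where 18.5% of 15694 genes passed (8.81% positive, 9.69% negative). For Tomm22 the effect moved from -0.40 in naive to +0.09 in effector cells, an interaction of 0.49 (SE 0.12, limma adjusted p = 0.0072), and for Tomm34 from -0.38 to +0.01, an interaction of 0.39 (SE 0.10, limma adjusted p = 0.0091). Both passed under all 24 alternatives run for this comparison. The small TOM subunit Tomm5 followed with 0.49 (SE 0.15, limma adjusted p = 0.023), Timm13 with 0.59 (SE 0.19, limma adjusted p = 0.032) and Timm29, a stabilising subunit of the TIM22 complex, with 0.31 (SE 0.11, limma adjusted p = 0.042). Tomm7 (0.47, limma adjusted p = 0.076), Romo1 (0.41) and Pmpca (0.11) did not pass, so for these 3 a difference between naive and effector cells was not shown. The count fell to 2 without naive cKO replicate 3 or without effector cKO replicate 2, and to 3 without naive WT replicate 1, naive WT replicate 3, effector WT replicate 1, 2 or 3, or effector cKO replicate 3.

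Between memory and naive cells 3 members had a positive interaction and 1 a negative one, where 16.9% of genes passed (7.89% and 9.00%). These were Tomm22 (0.44, SE 0.12, limma adjusted p = 0.019), Tomm34 (0.31, SE 0.10, limma adjusted p = 0.040) and Chchd4, the receptor of the disulfide relay (0.64, SE 0.21, limma adjusted p = 0.040), against Mtx3 (-0.55, SE 0.15, limma adjusted p = 0.017). Chchd4 had 212, 173 and 205 reads in naive WT and 157, 154 and 167 in naive cKO, but 117, 183 and 133 in memory WT and 166, 176 and 200 in memory cKO. It thus lay lower in all naive cKO libraries and overlapped in memory, and neither effect passed alone. Mtx3 had 647, 550.1 and 689 in naive WT and 814, 749 and 666 in naive cKO, an overlap, and separate groups below WT in memory. Without memory WT replicate 3 no member passed, without memory WT replicate 1 only Mtx3 did, and without naive cKO replicate 1 only Tomm22 did. The count of positive interactions fell to 1 without naive cKO replicate 2 or memory cKO replicate 3, to 2 without naive WT replicate 1, naive WT replicate 3 or memory cKO replicate 1, and Mtx3 did not pass without naive WT replicate 2. Between memory and effector cells 0 members passed in limma and 0 in edgeR, 5 had an unadjusted p under 0.05, and 8.71% of all genes passed (4.75% positive, 3.96% negative). Samm50 alone passed there, as negative, without memory cKO replicate 1. The naive libraries are shared by the first 2 interactions.

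The larger differences among the members were between the WT subsets. Naive cells came from lymph nodes and spleen and the other subsets from culture, so subset and culture cannot be told apart in comparisons with naive cells. From WT naive to WT effector cells 8 of 35 members rose and 11 fell, a share of 54.3%, where 69.8% of 14710 genes passed (34.7% higher, 35.1% lower). The members' median was 0.02, against -0.02 over all genes. Reads here are whole reads rebuilt from the deposited values, set by TMM to a common size of 16255815 reads per library, since the authors scaled each subset's table by itself. Mtx3 fell most, from 621, 525 and 657 scaled reads in naive to 171, 193 and 183 in effector libraries (log2 difference -1.71, SE 0.11, limma adjusted p = 3.5e-10). Timm9, part of the Timm9 and Timm10 chaperone that guides carriers across the intermembrane space, fell from 587, 485 and 537 to 167, 186 and 163 (-1.63, SE 0.11, limma adjusted p = 7.9e-10). The naive and effector values of both genes lay far apart, and their partners differed: Timm10 fell by 0.92 on the log2 scale (limma adjusted p = 9.9e-05), whereas Mtx2 stood at +0.03 and did not pass, and Mtx1 fell by 0.36.

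Of the 6 TIM23 genes, 3 rose and 1 fell from WT naive to WT effector cells, where 34.7% of all genes rose and 35.1% fell. Timm23, the channel subunit, went from 422, 419 and 503 scaled reads to 839, 761 and 902 (log2 difference +0.90, SE 0.092, limma adjusted p = 2e-07), with every effector library above every naive library. Timm17a rose by 0.69 (limma adjusted p = 4.4e-06) and its paralog Timm17b by 0.44 (limma adjusted p = 0.0013). Timm21 of the same complex fell by 0.87 (limma adjusted p = 4.7e-07), from 480.3, 402 and 465 to 249, 235 and 250.5, and Timm50 (+0.18) and Romo1 (+0.19) did not pass. Timm44, which anchors GRP75 at the channel, fell by 0.44 (limma adjusted p = 5.2e-05), from 1056, 1142 and 1061 to 758, 829 and 817, while Pam16 (-0.18) did not pass.

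In the TOM group, Tomm34 included, 2 of 8 tested genes rose and 2 fell from WT naive to WT effector cells, where 34.7% of all genes rose and 35.1% fell. The same shares stand beside the carrier-route genes below, and neither set of counts is read as a result about its group. Tomm22 rose from 1180.0, 1037 and 1123 to 1689, 1520.0 and 1619 scaled reads (log2 difference +0.53, SE 0.090, limma adjusted p = 6e-05) and Tomm7 by 0.44, whereas Tomm40 fell from 549, 736 and 529.5 to 333, 368 and 333 (-0.80, SE 0.11, limma adjusted p = 6.7e-06) and Tomm34 by 0.41 (limma adjusted p = 0.00011). The receptor Tomm22 and the channel Tomm40 thus moved in opposite directions, without overlap in either gene. Tomm20 (+0.06), Tomm5 (+0.09), Tomm70a (-0.13, limma adjusted p = 0.054) and Tomm40l (-0.19) did not pass. Among the 8 carrier-route genes tested Timm8b rose by 1.04 (limma adjusted p = 4.1e-05) and Timm22 by 0.34, while Timm9, Timm10, Timm8a1 (-0.68, limma adjusted p = 0.00042) and Timm10b (-0.58) fell. Timm8b shares 81 bases with Nkapd1 and Timm10b shares 361 with Arfip2, each on the other strand and each with more reads than the member, and reads from the shared stretch cannot be told apart. Timm10b also shares 3086 bases with Gm45799 on its own strand, which had 4.67 reads on average in naive and 2.5 in effector libraries. Pmpca rose by 0.32 (limma adjusted p = 0.00033) and Immp1l fell by 0.44. The 12 members with the lowest adjusted p (Mtx3, Timm9, Timm23, Timm21, Timm17a, Tomm40, Timm8b, Timm44, Tomm22, Timm10, Tomm34 and Pmpca) passed under all 15 alternatives. The 10 cycling-cell genes summed to 46.2 to 53.8 CPM in WT naive, 3191 to 3313 in WT effector and 333 to 343 in WT memory libraries. From WT naive to WT effector cells 6 of 7 B cell genes were higher and 1 lower. All 7 myeloid, 5 neutrophil and 4 NK cell genes were higher, and of the 9 CD8 T cell genes 5 were higher and 2 lower. The part of these marker genes in the differences between subsets was not tested.

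**Figure D4:**
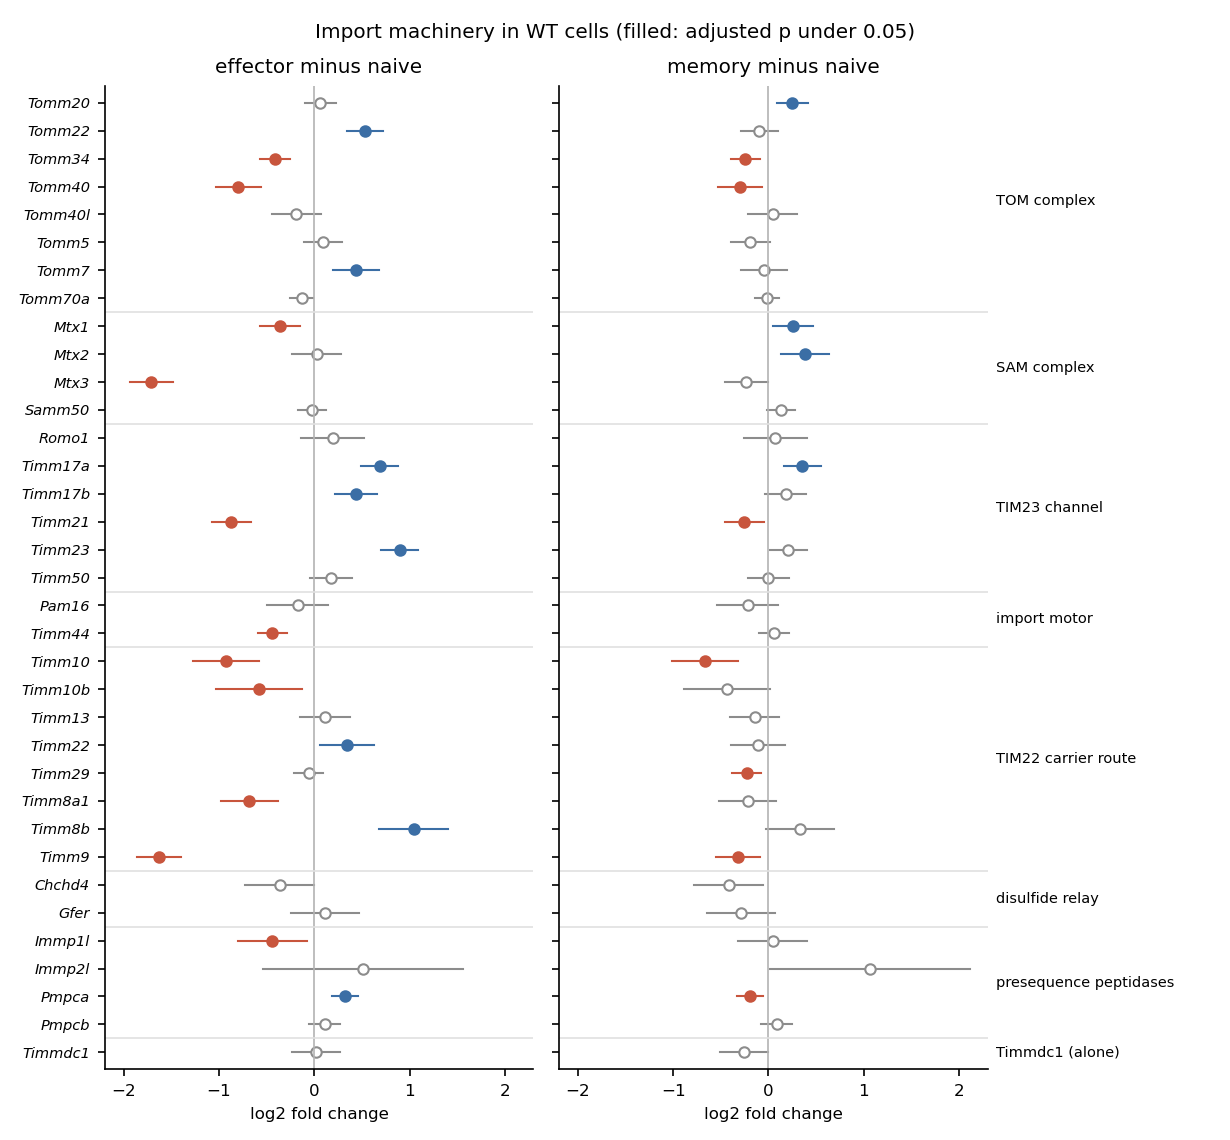
Log2 difference of each tested member from WT naive cells (horizontal axis), for WT effector and WT memory cells, 3 libraries per subset, with 95% confidence intervals from limma; filled points passed at an adjusted p under 0.05. Mtx3 and Timm9 lie farthest left in effector cells, at -1.71 and -1.63, and near -0.23 and -0.32 in memory cells.

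From WT naive to WT memory cells 4 members rose and 7 fell (31.4%, where 38.0% of genes passed, 20.2% higher and 17.8% lower). Those that rose were Mtx2 (+0.39, limma adjusted p = 0.019), Timm17a (+0.36, limma adjusted p = 0.0058), Mtx1 (+0.26) and Tomm20 (+0.25). Those that fell were Timm10 (-0.67, limma adjusted p = 0.0043), Timm9 (-0.32), Tomm40 (-0.30), Timm21 (-0.25), Tomm34 (-0.24), Timm29 (-0.23) and Pmpca (-0.20). Timm10 and Timm17a passed under all 15 alternatives, and the other calls each failed under at least 1. Without memory WT replicate 2 only Timm17a remained among those that rose (1 higher, 8 lower), and without naive WT replicate 2 there were 2 higher. Without memory WT replicate 3 there were 2 lower, without memory WT replicate 1 there were 3, and without naive WT replicate 1 there were 4. Removing the length trend left 4 higher and 4 lower.

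From WT effector to WT memory cells 10 members rose and 11 fell (60.0%, where 63.9% of genes passed, 32.0% higher and 31.8% lower). Mtx3 had 507, 461 and 567 scaled reads in memory libraries, above the 171 to 193 of effector cells (log2 difference +1.48, SE 0.11, limma adjusted p = 3.4e-09), and Timm9 had 480.3, 386 and 423 (+1.31, limma adjusted p = 1.9e-08). Mtx1 (+0.62), Timm21 (+0.62), Tomm40 (+0.50) and Timm44 (+0.50) were also higher in memory than in effector cells. Timm8b (-0.71), Timm23 (-0.69), Tomm22 (-0.63), Pmpca (-0.52), Tomm7 (-0.49) and Timm17a (-0.33) were lower. All 3 tests of subsets share libraries, so these values are not independent of those from naive cells. Scaling by library totals gave 14 higher and 8 lower. The count of those lower was 7 without memory WT replicate 1 or 3, and there were 7 higher and 13 lower without memory WT replicate 2.

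Per length, Tomm22 was the most abundant member in each WT subset, at 41.5 ± 2.68 RPKM (CPM per kilobase of the deposited gene length, mean ± SD, n = 3) in the naive, 60.0 ± 3.16 in the effector and 39.1 ± 5.95 in the memory subset. In naive cells Tomm34 (37.2 ± 3.87), Tomm5 (33.5 ± 1.37) and Tomm7 (32.5 ± 5.90) followed, each within the spread of its neighbour, and then Tomm20 (24.0 ± 1.4). These 5 genes were above the channel gene Tomm40, at 8.25 ± 1.56 in naive and 4.70 ± 0.274 in effector cells, while the counted level of the small subunit Tomm6 was far below it. Tomm6 shares 1648 bases with the protein-coding gene Gm21981 on the same strand. How reads that fit both were counted is not given, so this value need not be the level of Tomm6. In naive cells the motor anchor Timm44 stood at 18.2 ± 0.811 and Pam16 at 4.62 ± 0.470, and in the TIM23 channel Romo1 (15.7 ± 2.59) and Timm23 (15.4 ± 1.65) were within each other's spread. Among the 37 members listed in every table, the lowest in naive cells were Tomm6 (0.202 ± 0.0876), Immp2l (0.343 ± 0.214), Timm8a2 (0.403 ± 0.120) and Timm10b (1.26 ± 0.0556). Tomm20l, not listed for memory cells, had 0, 0 and 1.09 normalised reads in naive WT. All members together summed to 1234 ± 30.8 CPM in naive WT and 1247 ± 38.5 in naive cKO, 1138 ± 18.9 and 1158 ± 17.7 in effector, and 1185 ± 40.9 and 1219 ± 57.3 in memory cells. These sums are reads over each library's total, without the TMM scaling of the RPKM values above. On that measure the genotypes overlapped in every subset. Library totals moved the naive median log2 difference of all genes from -0.01 to +0.11. The naive sums are therefore not on the scale of the naive tests, and were not compared on that scale.

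Paralogs were unequal in level. Timm17b stood at 3.97 ± 0.0564 RPKM and Timm17a at 2.93 ± 0.302 in WT naive cells, and in WT effector cells at 5.38 ± 0.235 and 4.71 ± 0.269. In naive cells Tomm40 (8.25 RPKM) was above Tomm40l (2.06 ± 0.0325), and Timm10 (10.3 ± 0.446) above the counted level of Timm10b (1.26). Timm10b shares 3086 bases with the protein-coding gene Gm45799 on the same strand, so its value need not be its level. Timm8a1 (9.92 ± 0.967) and Timm8b (13.5 ± 2.80) were near each other in naive cells, and apart in effector cells, at 6.19 ± 0.939 and 27.7 ± 4.49. Timm8a2 had 0.403, 0.267 and 0.523 RPKM in the WT subsets. Tomm20l had at most 1.09 normalised reads in any library, against 1783 to 2584 for Tomm20. Reads were assigned by the authors, and how reads that fit several genes were counted is not given in the sources used here.

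**Figure D5:**
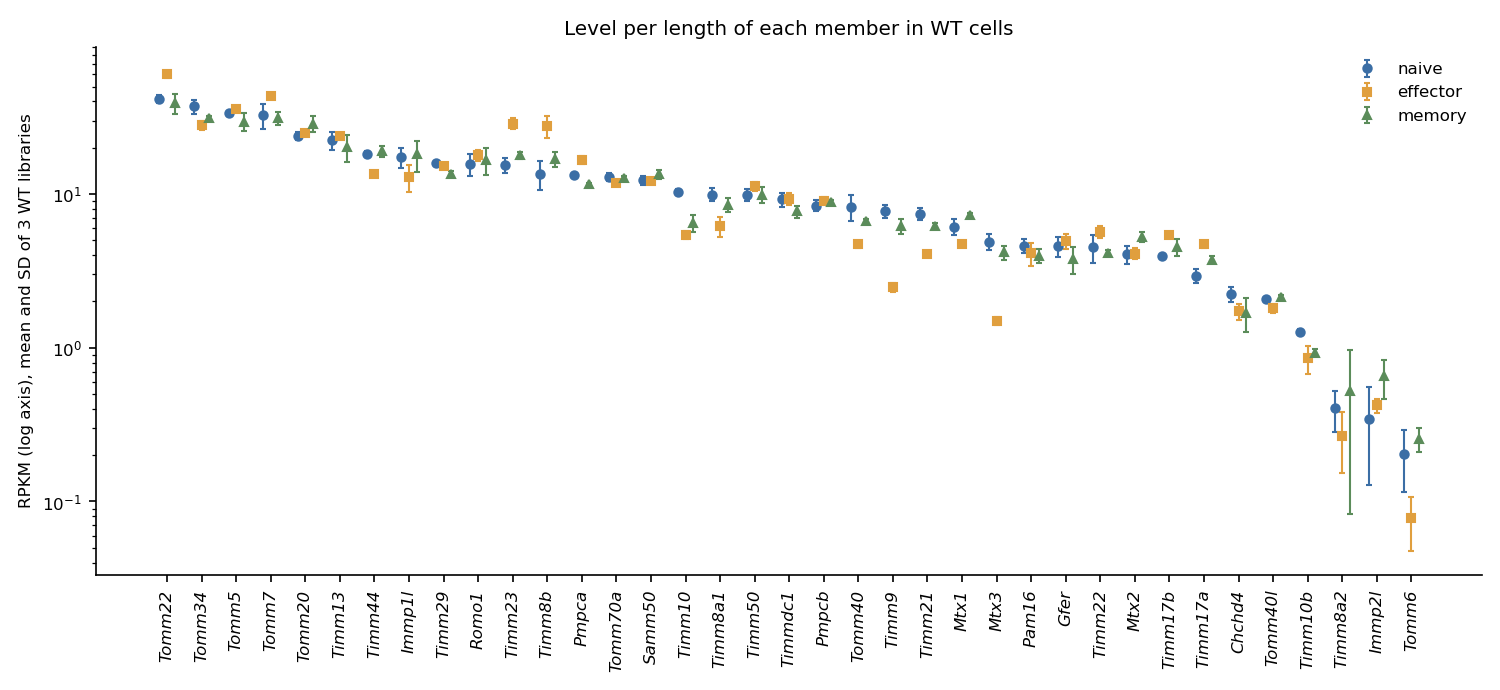
Level of each member in WT naive, effector and memory cells in RPKM (vertical axis, log scale), mean of 3 libraries with SD bars. Members run from left to right by falling level in naive cells. Tomm22 lies farthest left and is the highest in all 3 subsets (41.5, 60.0 and 39.1 RPKM), and Timm8a2, Immp2l and Tomm6 lie farthest right.

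The genes around the machinery were read from lists chosen by function. Of 10 motor partners and matrix maturation genes, 1 was higher and 1 lower in naive cKO libraries, Hspa9 as above and Dnajc15, a J-domain co-chaperone of the import motor. Dnajc15 had 2076, 1827 and 1980 normalised reads in naive WT and 1155, 1246 and 939 in naive cKO libraries (log2 difference -0.82, limma adjusted p = 0.00012), and its memory difference was -0.70 (limma adjusted p = 0.00019). Its groups did not overlap in naive cells, and in effector cells the difference was -0.14 (limma adjusted p = 0.054). The effector list again had 1 higher, Hspa9, and 1 lower, Mipep (-0.58, limma adjusted p = 0.010), an intermediate peptidase of the matrix. Of 7 MICOS genes, which shape cristae and contact the SAM complex, Micos13 was lower in naive cells (-0.48, limma adjusted p = 0.0053) and 0 passed in effector or memory cells. Of 9 outer membrane genes Ubqln2 was lower in naive cells (-0.43), Vdac1 (-0.16) and Vdac3 (-0.15) were lower and Ubqln4 (+0.22) higher in effector cells, and Ubqln4 (+0.29) was higher in memory cells. Over all tested genes, 12.9% were higher and 11.9% lower in naive, 10.7% and 9.37% in effector, and 12.1% and 7.00% in memory cells. Counts from lists this short are not read as a result about the lists. From WT naive to WT effector cells Dnajc15 rose by 0.73 (limma adjusted p = 7.2e-08) and Hspa9 fell by 0.77 (limma adjusted p = 3.5e-09), in a comparison that shares the naive WT libraries with the genotype effect in naive cells.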

How the data were processed

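The data are 18 poly-A RNA-seq libraries of CD8+ T cells from mice. Per the submitters' processing notes, fastp, HISAT2 2.2.1, featureCounts 2.0.6, DESeq2 1.42.0 and build GRCm39 were used; their settings, the annotation and the strand setting are not given in the sources used here. The authors deposited 1 table per subset, with a signal per gene and library (read counts divided by a size factor, called normalised reads above), a gene length, a log2 fold change, and p-values before and after adjustment. Dividing each deposited signal by the worth of 1 read gave whole numbers for 100% of values, within 1e-05 of a read. In no deposited column of per-sample values was the sample left unmapped.

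The genotype effect and the interactions were tested with limma 3.58.1 (R 4.3.3, intensity trend) on log2(normalised reads + 1), on genes with at least 10 in at least 3 libraries. WT subsets were compared on recovered reads scaled by TMM, since the deposited tables were scaled separately. All p-values were adjusted by Benjamini-Hochberg over all genes tested, with a threshold of 0.05, and fold changes on the log2(value + 1) scale understate those of low genes. The code of the tests was run on simulated counts with the same spread setting for every gene and no length trend. That run does not cover the spread between these libraries. Every member was to be named once and the changed members, up to 12 per comparison, given with statistics; paralogs were named whether changed or not. Alternatives were a pseudocount of 10, no filter, TMM, edgeR 4.0.16, DESeq2 1.42.0, a replicate block, all 18 libraries in 1 fit and leaving out each library, and, chosen after seeing the data, library totals for the genotype comparisons and removal of the length trend. Replicates differed by more than sampling noise in every group. Promoters came from RefSeq on GRCm38.p6, and member coordinates from the deposited tables. The members and gene lists were chosen with earlier results of these data known. The erythroid markers are given for the 5 genes that every table lists.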

Additional observations from a re-analysis of the deposited data

Results flagged for a closer look

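For these members the genotype effect itself differed between subsets by the interaction test of limma. Values are differences of the log2 effect, cKO minus WT. Effector minus naive gave 0.49 for Tomm22, 0.39 for Tomm34, 0.49 for Tomm5, 0.59 for Timm13 and 0.31 for Timm29. Memory minus naive gave 0.44 for Tomm22, 0.31 for Tomm34, 0.64 for Chchd4 and -0.55 for Mtx3. Sex is confounded with the genotype labels in the naive libraries, which enter all of these, and the part of sex was not tested.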

How the results depend on the processing

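No call among the members counted here reversed its direction under the alternatives run. Stability was counted for the changed members with the lowest adjusted p, up to 12 per comparison, over all comparisons together. Further changed members of WT effector against WT naive and of WT memory against WT effector were not counted. Under the other settings, 302 values kept the call and 34 lost it. When a library was left out, 420 kept it and 105 lost it. Of the 6 such fits in naive cells, Tomm22 and Tomm34 passed in 6 and Tomm7 in 3. Romo1 and Timm13 passed in 2, and Pmpca and Tomm5 in 1. In memory cells Mtx1 passed in 1 of 6. Library totals gave 3 higher and 2 lower in naive cells, and 1 higher and 0 lower in memory cells. With the length trend removed, 4 were lower in naive cells, 1 higher and 2 lower in memory cells, 1 interaction of effector minus naive was negative, and 4 were lower in WT memory against naive. In memory cells edgeR called 2 lower, DESeq2 2 lower and the fit of all 18 libraries 2 lower. The cause of these moves was not tested.

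The replicate block gave 3 lower in naive and 0 lower in memory cells, 2 positive interactions of effector minus naive and 1 of memory minus naive. Same-numbered WT and cKO libraries did not deviate together (correlations 0.0201, -0.143 and -0.127 in naive, -0.00885, 0.00448 and 0.0196 in effector, -0.135, -0.124 and 0.0665 in memory cells). With 3 libraries per group, these values cannot exclude a shared preparation. The labels do not say whether same-numbered libraries were paired.

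Leaving out each library gave 0 to 1 higher and 2 to 6 lower in naive, 0 to 0 higher and 0 to 1 lower in effector, and 0 to 1 higher and 0 to 4 lower in memory cells. Positive interactions ranged from 2 to 6 (effector minus naive), 0 to 4 (memory minus naive) and 0 to 0 (memory minus effector), and negative ones 0 to 0, 0 to 1 and 0 to 1. In WT, effector against naive gave 7 to 8 higher and 9 to 13 lower, memory against naive 1 to 4 and 2 to 8, and memory against effector 7 to 13 and 7 to 13. The 3 libraries per group limit the precision, and Tomm6, Timm8a2, Tomm20l and Immp2l had too few reads for small differences to be detectable.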
